A study of Mus musculus with 27 samples.

Results

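The cytosolic ribosomal protein genes of NMuMG cells were followed through TGF-β treatment and lamin B1 knockdown. Members were chosen by name alone, as the symbols in the deposited expression tables that begin with Rpl or Rps and go on with a number and at most 1 of the letters a, l or x, together with Rplp0, Rplp1, Rplp2 and Rpsa. No measured value entered this choice. It gave 81 genes of the 24892 symbols in the tables, 49 of the large and 32 of the small ribosomal subunit. The table of parental cells held 80 of them among 23295 symbols, and the table of shRNA cells held all 81 among 24247 symbols. The gene Rps4l was listed in the shRNA table alone.

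Ribosomes translate mRNA into protein, and each is built from a small subunit that reads the mRNA and a large subunit that joins the amino acids. Both subunits consist of ribosomal RNA and of ribosomal proteins, which are needed in equal amounts and are among the most abundant products of growing cells. In mammals most ribosomal proteins come from a single active gene with introns, beside many processed pseudogenes. Their mRNAs start with a C followed by a run of C and T, the terminal oligopyrimidine or TOP motif, through which the mTOR pathway and the RNA-binding protein Larp1 control their translation. Some ribosomal proteins, such as Rpl5, Rpl11 and Rpl26, also act on the p53 pathway when ribosome assembly is disturbed.

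NMuMG cells are an established line from normal mammary epithelium of the mouse, and TGF-β, a secreted growth factor, drives them through an epithelial to mesenchymal transition (EMT). RNA-seq was done on parental cells, on cells infected with an irrelevant control shRNA (shCT, control cells) and on cells infected with an shRNA against lamin B1 (shLB, KD cells), each untreated (0 h) or after TGF-β for 8 h or 24 h, in 2 biological replicates for every group (18 libraries in all). Lamin B1 ChIP-seq and ATAC-seq were done on cells without shRNA at the same times, with 1 library of each kind at a time point, and parallel ChIPs were mixed to make 1 library. For this ChIP-seq the paper used low sonication, which by its account breaks mainly open chromatin. Large fragments, where heterochromatin stays, were left out of sequencing. The lamin B1 peaks therefore describe a fraction enriched in euchromatin. TGF-β was given at 1 to 5 ng/ml to all treated groups, as the labels say. Control and KD cells both carry an integrated shRNA, and the knockdown is partial. Hi-C was done on 3 further samples, which were not analysed here.

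The start of transcription is where lamin B1 and ATAC peaks of these genes were counted and where the TOP motif lies, so the sequence there is shown first. RefSeq promoters of build GRCm38.p6 were at hand for 60 of the 81 members (74.1%), which is too few for a statement on all of them, and the shares below cover those 60 alone. They stand beside all promoters, of expressed and silent genes alike. No share over other expressed genes is given, so these shares do not set members apart from such genes. Each line gives 15 bases before and 20 bases after the annotated start, with the longest run of C or T in capitals. The first 5 show long runs, and the others are members on which later results turn.
Rps6, chr4:86857348-86857382, minus strand: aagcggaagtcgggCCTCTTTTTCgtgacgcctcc
Rpl28, chr7:4792950-4792984, plus strand: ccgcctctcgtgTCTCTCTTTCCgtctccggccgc
Rpl35, chr2:39005112-39005146, minus strand: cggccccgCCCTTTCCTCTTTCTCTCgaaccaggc
Rpl38, chr11:114668565-114668599, plus strand: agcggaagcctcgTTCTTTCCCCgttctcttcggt
Rps18, chr17:33955646-33955680, minus strand: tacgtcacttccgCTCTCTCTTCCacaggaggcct
Rpl7a, chr2:26910792-26910826, plus strand: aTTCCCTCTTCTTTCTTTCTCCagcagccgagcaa
Rpl26, chr11:68901551-68901585, plus strand: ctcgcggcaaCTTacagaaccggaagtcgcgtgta
Rps27l, chr9:66946071-66946105, plus strand: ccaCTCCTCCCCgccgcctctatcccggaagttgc
Rps2, chr17:24720048-24720082, plus strand: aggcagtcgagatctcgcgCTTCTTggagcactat
Rplp0, chr5:115559452-115559486, plus strand: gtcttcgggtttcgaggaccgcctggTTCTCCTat

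A C followed by at least 4 further C or T began within 5 bases of the annotated start in 24 of the 60 members (40%), against 16.1% of all 27025 promoters in the same table. Within 10 bases of the start the share was 56.7% against 29.1%. An unbroken run of 12 or more C or T between 10 bases before and 20 bases after the start was found in 11 members (18.3%), against 4.38% of all promoters. Rpl26, whose mRNA moved most in several comparisons below, had a longest run of 3 bases in this window, and Rpl7a had 21. Rpl26 also carried CTTTCC within 50 bases of the start, outside the bases printed for it. The place of a run hangs on the annotated start, which was not checked in these cells.

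Further letters were searched in the 250 bases before the start, on both strands unless said otherwise. CCGGAAG, the core bound by ETS family factors, was found in 18 of the 60 members (30%) and in 7.05% of all promoters. GGGCGG, the core bound by Sp1, was found in 28 (46.7%) and in 32.9%. CTTTCC, searched on the sense strand within 50 bases of the start, was found in 17 (28.3%) and in 4.67%, and it overlaps the runs of C and T counted above. TATAAA, searched on the sense strand in the 50 bases before the start, was found in 0 of the 60 members and in 2.88% of all promoters. In Rpl36a TATAAA stood just after the annotated start, outside that window. CCGGAAG just after the start, as in the windows of Rpl26 and Rps27l above, was likewise not counted. CACGTG, an E-box, was found in 4 members (6.67%) and in 6.05% of all promoters. TCTCGCG was found in 10 members (16.7%), among them Rpl12, Rpl26, Rpl7a, Rps15a and Rps6, and in 2.20% of all promoters. The 150 bases before the start of 3 of these genes, chosen after the search, are shown because the letters stand there on both strands with an overlap, and because Rpl12 and Rpl26 had the strongest called decreases of the knockdown at 0 h. These letters and the ETS and Sp1 cores searched above, on either strand, are in capitals.
Rpl12, chr2:32961562-32961711, plus strand: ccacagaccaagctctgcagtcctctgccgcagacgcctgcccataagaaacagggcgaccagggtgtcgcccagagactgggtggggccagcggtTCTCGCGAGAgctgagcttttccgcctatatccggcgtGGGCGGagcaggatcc
Rpl26, chr11:68901416-68901565, plus strand: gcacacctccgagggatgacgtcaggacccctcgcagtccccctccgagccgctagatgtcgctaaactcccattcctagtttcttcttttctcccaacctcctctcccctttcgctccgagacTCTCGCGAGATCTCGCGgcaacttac
Rps6, chr4:86857368-86857517, minus strand: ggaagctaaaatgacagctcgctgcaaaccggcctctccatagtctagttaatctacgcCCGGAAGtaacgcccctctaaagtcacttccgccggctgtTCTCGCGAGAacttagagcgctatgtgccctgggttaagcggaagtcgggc

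The RNA values are FPKM, fragments divided by transcript length and by the mapped fragments of the library, so levels of different genes can be set side by side. The tables hold no read counts, so the depth of each library is unknown. Libraries of the same group correlated at 0.990 to 0.994 over all genes in the parental table and at 0.983 to 0.993 in the shRNA table. Small RNA genes (snoRNA, microRNA and the like) took 21.6 to 31.5% of the summed FPKM in the parental libraries and 7.27 to 43.0% in the shRNA libraries. Their share differed most within a group in KD cells at 8 and 24 h. The small RNA gene Snord47 alone ranged from 15167 to 238432 FPKM over the shRNA libraries. Of the 6 epithelial markers, Krt8 and Krt18 were at 1720 FPKM or more in every library, Krt19 ranged from 18.04 to 1192 FPKM and Cdh1 from 26.8 to 127 FPKM, Epcam was between 0.171 and 3.15 FPKM, and Cldn7 was under 1 FPKM in every library. Of 10 markers of blood, endothelium, fibroblasts and adipocytes, 8 in the parental and 9 in the shRNA table were under 1 FPKM in every library, and their summed level was 4.05 to 5.20 FPKM in the parental and 1.69 to 2.47 FPKM in the shRNA libraries.

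Lmnb1, the targeted gene, was at 29.2 and 36.5 FPKM in untreated control cells and at 9.01 and 9.27 FPKM in untreated KD cells. At 8 h it was at 32.8 and 32.1 FPKM in control and at 7.79 and 8.14 FPKM in KD cells, and at 24 h at 18.4 and 17.9 FPKM in control and at 4.37 and 7.52 FPKM in KD cells. The KD libraries lay below the control libraries at every time point. The ratio of KD to control cells, taken on FPKM plus 1, was 0.301, 0.268 and 0.353 in the order of time. The added constant makes these ratios higher than those of the FPKM alone. Lmnb1 also fell with TGF-β in parental cells, from 36.9 and 36.3 FPKM at 0 h to 19.5 and 17.6 FPKM at 24 h.

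The ribosomal protein mRNAs were among the most abundant of the cell. Over the 77 members with a mean of at least 1 FPKM, the median of the mean levels in parental libraries was 1265 FPKM, against 13.5 FPKM over all 11033 genes above the same level. Of these 77, 51 were at 1000 FPKM or more, 17 between 500 and 1000 FPKM and 9 under 500 FPKM. Members made up 53 of the 100 genes with the highest mean in the parental and 48 in the shRNA table. Their summed FPKM was 13.1 to 15.9% of the total in parental and 10.2 to 18.04% in shRNA libraries. When small RNA genes were left out of the total, the share was 18.96 to 20.3% in parental and 17.3 to 20.5% in shRNA libraries, a narrower range. The median was 1111 FPKM for the large subunit (46 genes) and 1366 FPKM for the small subunit (31 genes) in parental cells.

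The 5 highest members by their mean over the parental libraries were Rplp1, a protein of the stalk that binds elongation factors (3670 FPKM), Rps12 (3599 FPKM), Rps18 (3538 FPKM), Rpl41 (3229 FPKM) and Rps2 (2764 FPKM). The 5 lowest were Rpl10l, listed at 0 in every library, Rpl39l (0.0164 FPKM), Rpl3l (0.0459 FPKM), Rps27 (8.30 FPKM) and Rpl34 (46.4 FPKM). Apart from Rpl10l, Rpl39l, Rpl3l and Rps4l, every member was above 1 FPKM in every library of its table.

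**Figure D1:**
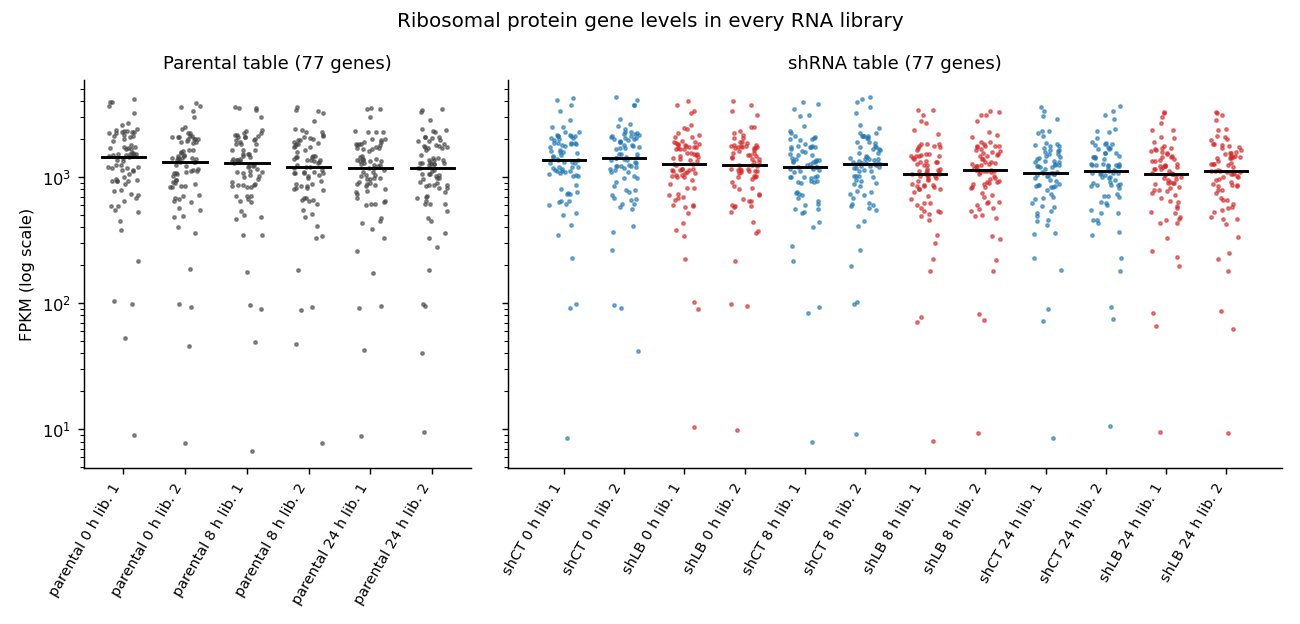
Levels of the 77 tested ribosomal protein genes in each RNA library (each point is a gene, FPKM on a log axis, the bar is the median of the library; grey parental, blue control, red KD). The library medians run from 1176 to 1441 FPKM in the parental table and from 1059 to 1424 FPKM in the shRNA table, which were normalized separately.

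The copies whose names end in l were of 2 kinds. Rpl3l, Rpl10l, Rpl39l and Rps4l, which are known as tissue-restricted paralogs of muscle or germ cells, were at or near 0 throughout, with a highest value of 0.0822 FPKM for Rpl3l, 0.0527 FPKM for Rpl39l and 0.399 FPKM for Rps4l, while their main copies Rpl3, Rpl39 and Rps4x averaged 1377, 2005 and 1791 FPKM in parental cells. Rps27l, a copy of Rps27 known as a p53 target, was between 363 and 550 FPKM in the parental libraries, far above the 6.78 to 9.57 FPKM of Rps27 itself.

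Near-identical copies limit how far single members can be read. Of the 50-base stretches in a member's longest annotated coding sequence, a median of 90.3% over 79 members was found again elsewhere in the mm9 genome, and 64 members had more than 50% of such shared stretches. For Rps27 the share was 100%, with matches at 11 other places, and the copy Rps27rt, listed in the shRNA table alone, was at 2111 to 2829 FPKM there. Rpl34 was at 40.0 to 52.9 FPKM in the parental and at 220 to 366 FPKM in the shRNA table, while its copy Rpl34-ps1 was at 1363 to 1600 and at 1048 to 1513 FPKM. Values of Rps27 and Rpl34 are therefore uncertain. The shared part was 98.1% for Rpl36, 87.4% for Rpl26, 78.0% for Rps2, 60.4% for Rplp0 and 26.8% for Rps27l, which are described below. In the shRNA table Rps27 was at 8.51 and 42.0 FPKM in the 2 untreated control libraries and at 7.90 to 10.6 FPKM in the other 10, so every difference of Rps27 that uses the untreated control cells rests on the second replicate.

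Differences below are log2 of FPKM plus 1 and come from limma fits over all genes of a table, with Benjamini-Hochberg adjustment over 11309 parental and 11450 shRNA genes, and a member is called when its adjusted p is under 0.05. FPKM are relative to the other transcripts of a library, so a lower value can mean fewer of these mRNAs or more of others. In such bulk samples, fewer cells with a given level and less RNA per cell cannot be told apart. Counts of members under other scalings or without a library lack the share of all genes called there, except where it is printed. Scaling moves the calls of all genes, so such counts alone do not set members apart from other genes.

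In parental cells, TGF-β was followed by lower levels of many ribosomal protein mRNAs, by small amounts. At 8 h 8 of 77 tested members fell and 0 rose (10.4% called), where 32.1% of all genes tested fell and 22.4% rose. The median difference of the members was -0.09, so the median member decreased by 6.21%, against -0.05 over all genes tested. The 2 libraries at 8 h were both below the 2 at 0 h for 47 members, against 45.4% of all genes. At 24 h 45 members fell and 0 rose (58.4% called), where 37.1% of all genes fell and 33.4% rose. The median difference was -0.17, so the median member decreased by 11.2%, against -0.02 over all genes tested and -0.13 over the 750 other genes with a mean of 100 FPKM or more. Of 46 large subunit members 6 were lower at 8 h and 27 at 24 h, and of 31 small subunit members 2 and 18, a difference that was not tested. The calls depended on single libraries. Without the first-listed untreated library 2 members fell at 8 h (median -0.04) and 26 at 24 h, and without the second-listed untreated library 25 fell at 8 h (median -0.14). Median-of-ratios scaling gave 2 lower at 8 h with a median of -0.05, and quantile normalization 4 with a median of -0.02. Without the second-listed 8 h library 3 fell, without the first-listed 24 h library 19 fell, and without the second-listed 24 h library 26 fell. The share of small RNA was 25.96 and 31.5% in the 24 h libraries against 21.6 and 23.0% in untreated cells. Leaving small RNA genes out of the scaling gave 26 members lower and 4 higher at 24 h, with a median of -0.07, and quantile normalization gave 14 lower and 16 higher, with a median of -0.00. Over all genes tested these medians were +0.07 and +0.01.

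Among the called members Rpl26, a large subunit protein that also binds p53 mRNA, moved most. It was at 449 and 405 FPKM at 0 h, at 350 and 328 FPKM at 8 h and at 258 and 279 FPKM at 24 h. The 3 pairs of libraries did not overlap. The fall was 0.33 on the log2 scale at 8 h (log2 difference -0.33, SE 0.07, limma adjusted p = 0.00497) and 0.67 at 24 h (-0.67, SE 0.07, adjusted p = 9.23e-05), and Rpl26 was called lower at both times under each of the 12 alternatives run. Rps27l was at 550 and 487 FPKM at 0 h and at 385 and 363 FPKM at 24 h (log2 difference -0.47, SE 0.08, adjusted p = 0.0017). Rps2, a small subunit protein near the mRNA entry, was at 3208 and 2992 FPKM at 0 h, at 3015 and 2801 FPKM at 8 h and at 2295 and 2272 FPKM at 24 h (-0.44 at 24 h, SE 0.06, adjusted p = 0.000566). For both genes the 24 h libraries lay below the untreated ones. After Rpl26 and Rps27l, Rplp1 had the strongest called fall at 8 h (-0.19, adjusted p = 0.0406), at 4151 and 3864 FPKM before and at 3609 and 3430 FPKM after.

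Among the members that were not lower at 24 h, Rps27 (+0.13) and Rpl28 (+0.04) had the highest values, and neither was called. Rplp0, the base of the stalk and a common reference gene in PCR, was at 2350 and 2257 FPKM at 0 h and at 2295 and 2304 FPKM at 24 h, and its libraries overlapped. At 8 h Rpl10 (+0.01), Rps9 and Rplp0 (both 0.00) were nearest to or above 0, again with overlapping libraries.

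**Figure D2:**
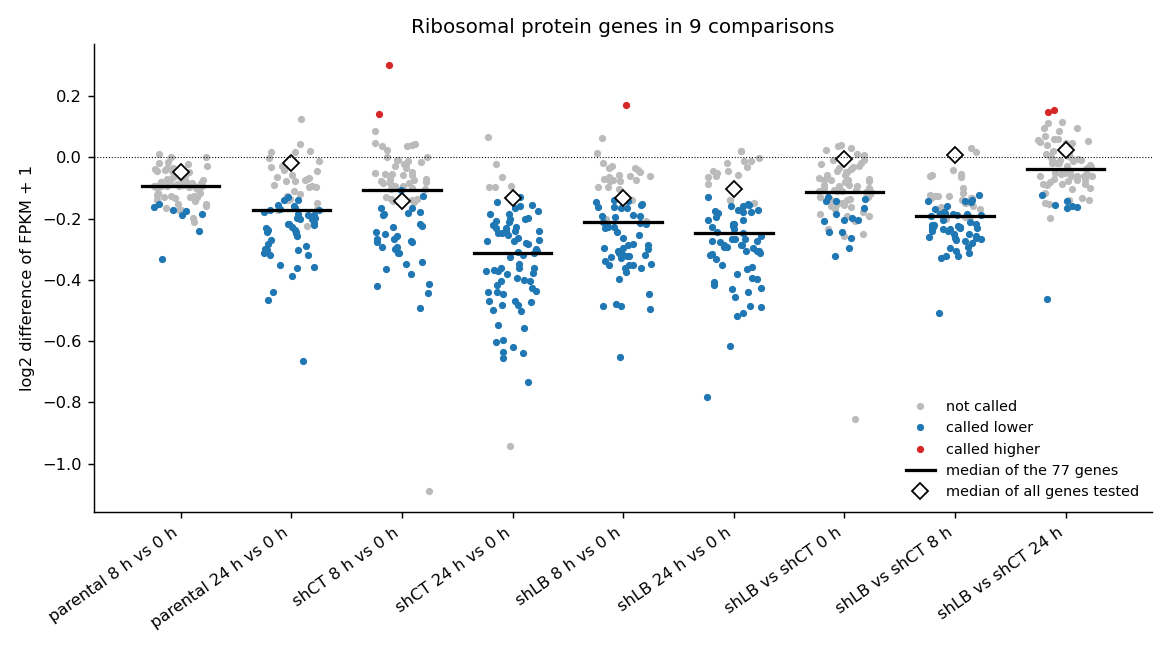
Log2 difference of each of the 77 tested ribosomal protein genes (points) in 9 comparisons, with the median of these genes (bar) and of all genes tested (diamond); blue points were called lower and red points higher at a limma adjusted p under 0.05. The bars lie below 0 in all 9 comparisons and below the diamonds in 8 of them, with the deposited FPKM, and the scaling settings under which they change sign are given in the plot of scalings; the lowest grey points of control cells at 8 and 24 h and of KD against control cells at 0 h are Rps27.

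In control cells most ribosomal protein mRNAs were lower at 24 h. At 8 h 32 of 77 members fell and 2 rose, where 44.9% of all genes fell and 19.4% rose, and the median difference of -0.11 lay above that of all genes tested (-0.14). At 24 h 70 members fell and 0 rose (90.9% called), where 45.1% of all genes fell and 25.5% rose. The median difference was -0.31, so the median member decreased by 19.6%, against -0.13 over all genes and -0.19 over the 781 other genes with a mean of 100 FPKM or more. The libraries at 24 h were below those at 0 h for 74 of the 77 members, against 54.7% of all genes. The share of small RNA in control cells was 15.1 and 12.03% at 0 h, 35.6 and 32.3% at 8 h, and 40.3 and 32.5% at 24 h. Without small RNA genes in the scaling 44 members fell and 1 rose at 24 h (median -0.18), and at 8 h 22 fell and 5 rose (median -0.03). Over all genes tested these medians were -0.01 at 24 h and -0.07 at 8 h. The median at 24 h was -0.16 under median-of-ratios scaling, -0.17 under quantile normalization and -0.67 with scaling by the summed FPKM of all other genes. The direction at 8 h turned under median-of-ratios scaling, with 14 members higher, 8 lower and a median of +0.05.

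Rpl36, a large subunit protein, was among the called members that fell most in control cells at 24 h. It was at 1298 and 1402 FPKM at 0 h and at 853 and 862 FPKM at 24 h, with no overlap between times (log2 difference -0.65, SE 0.08, adjusted p = 7.34e-05). Rpl34 (-0.64, adjusted p = 3.78e-06) was close to it. At 8 h Rpl35a, also of the large subunit, was at 1140.1 and 1272 FPKM, against 1569 and 1706 FPKM at 0 h (-0.44, SE 0.08, adjusted p = 0.000924). Rps26, of the small subunit, was at 1369 and 1328 FPKM, against 1795 and 1809 FPKM at 0 h (-0.42, SE 0.08, adjusted p = 0.00151). For both genes the 8 h libraries lay below the untreated ones. Each of these members was called lower under all 13 alternatives run.

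Rps2 and Rplp0 rose at 8 h in control cells. Rps2 was at 2475 and 2640 FPKM at 0 h, at 3078 and 3220 FPKM at 8 h and at 2336 and 2338 FPKM at 24 h (+0.30 at 8 h, SE 0.05, adjusted p = 0.000535). Rplp0 was at 2134 and 2179 FPKM at 0 h and at 2304 and 2454 FPKM at 8 h (+0.14, SE 0.05, adjusted p = 0.0242). The direction turned to -0.05 for Rps2 and -0.21 for Rplp0 when libraries were scaled by the summed FPKM of all other genes, and to -0.01 for Rps2 under quantile normalization. Rps2 was called in 11 of 13 alternatives and Rplp0 in 7 of 13. At 24 h Rplp0 (+0.06) and Rps23 (-0.02) were the members least lowered, and neither was called.

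In KD cells the decrease was already wide at 8 h with the deposited FPKM. At that time 53 of 77 members fell and 1 rose (70.1% called), where 44.8% of all genes fell and 23% rose, with a median difference of -0.21 (it decreased by 13.6%) against -0.13 over all genes. At 24 h 59 members fell and 0 rose (76.6% called), where 43.3% of all genes fell and 28.6% rose, with a median of -0.25 (it decreased by 15.7%) against -0.10. Libraries did not overlap and lay below the untreated ones for 68 members at 8 h and 67 at 24 h, where this held for 57.6% and 49.8% of all genes. The share of small RNA in KD cells was 7.27 and 9.76% at 0 h, 31.7 and 15.6% at 8 h, and 26.7 and 43.0% at 24 h. Leaving small RNA genes out of the scaling gave 42 members lower and 2 higher at 8 h. Their median was then -0.15, against -0.07 over all genes. At 24 h it gave 46 lower and 0 higher, with a median of -0.17 against -0.03. The part of small RNA in these differences was not tested beyond this. Median-of-ratios scaling left 24 lower and 2 higher at 8 h, with a median of -0.07, and 41 lower and 1 higher at 24 h, with a median of -0.15. With scaling by the summed FPKM of all other genes the medians were -0.47 and -0.75, against -0.36 and -0.55 over all genes. Under quantile normalization KD cells did not stand apart from control cells at 8 h. There 39 members fell and 0 rose in KD cells (median -0.19), and 43 fell and 0 rose in control cells (median -0.19).

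Rpl26 fell most at 24 h in KD cells as in parental cells. It was at 436 and 438 FPKM at 0 h, at 298 and 326 FPKM at 8 h and at 259 and 248 FPKM at 24 h (-0.78 at 24 h, SE 0.07, adjusted p = 8.36e-06). No library of a later time overlapped an untreated one. Rpl34 (-0.65), Rpl35a (-0.49) and Rps26 (-0.49) led at 8 h, and Rpl34 (-0.61) and Rps15a (-0.52) followed Rpl26 at 24 h. Rps15a, a small subunit protein, was at 89.9 and 94.9 FPKM at 0 h and at 66.5 and 61.9 FPKM at 24 h. Rps2 rose at 8 h also in KD cells, from 2438 and 2503 FPKM to 2763 and 2805 FPKM (+0.17, SE 0.05, adjusted p = 0.0104). It was called in 9 of 13 alternatives, lost its call under quantile normalization, with no filter and without the first untreated KD replicate, and turned to -0.09 when libraries were scaled by the summed FPKM of all other genes. Rpl23a (+0.02) and Rps23 (+0.02) were not called at 24 h.

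The 3 comparisons of 24 h with 0 h share no libraries. With the deposited FPKM, 37 of the 77 members fell in all 3, where 31% of the 10843 genes tested in both tables did. In none of the 3 fell 5 members, against 46.8% of all genes, among them Rpl23a, Rplp0, Rps23 and Rps27. Rpl26, Rpl8 and Rps27l kept their call as lower in each of the 3 under all alternatives run.

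Because the members moved together by small amounts, each was also set against the median of all members in its own library. This scaling was added after seeing the data. It sets the members' median near 0, so a near-even split of members into higher and lower is built in. The shares of all genes are shifted by the same scaling. At 24 h it left 14 members higher and 15 lower than the others in parental cells, where 44.2% and 23.5% of all genes were higher and lower, 19 and 18 in control cells (45% and 23%), and 16 and 16 in KD cells (43.3% and 26.2%). Rpl14, Rpl26, Rpl27, Rpl29, Rpl36, Rpl8 and Rps27l fell more than the members' median in all 3. Rpl3, Rpl7, Rplp0 and Rps23 were higher relative to that median in all 3. Some of these did not fall with the deposited FPKM, such as Rplp0 in control cells (+0.06, not called). Rps2 was the single member with opposite calls, at -0.27 in parental, +0.20 in control and +0.19 in KD cells relative to the members' median.

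**Figure D3:**
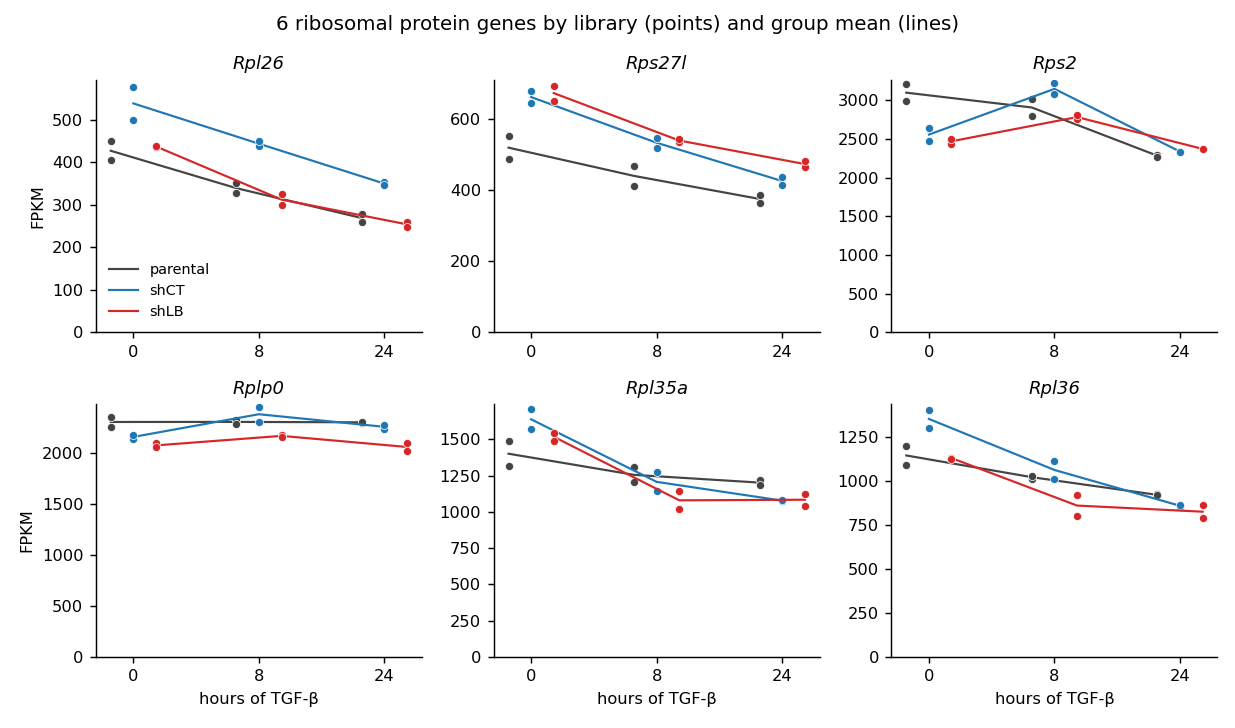
FPKM of 6 ribosomal protein genes by hours of TGF-β in parental (grey), control (shCT, blue) and KD (shLB, red) cells; points are libraries, lines join group means of 2 libraries, and parental and shRNA values come from separately normalized tables. Rpl26 lies lower in KD than in control cells at each time, Rps2 peaks at 8 h in both shRNA lines, and Rplp0 stays between 2018 and 2454 FPKM.

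The effect of lamin B1 knockdown was tested at each time. KD cells had lower ribosomal protein mRNA levels than control cells, most widely at 8 h, under the deposited FPKM, while quantile normalization and scaling by the summed FPKM of all other genes turned the median at 0 and 8 h to between +0.02 and +0.04. With the summed FPKM at 0 h the members' median of +0.02 still lay below that of all genes (+0.11). Under quantile normalization at 0 h it was +0.03, against -0.00 over all genes. At 0 h 15 of 77 members were lower and 0 higher (19.5% called), where 9.09% of all genes were lower and 10.6% higher, with a median of -0.11 against -0.01 over all genes. At 8 h 50 were lower and 0 higher (64.9% called), where 16.5% of all genes were lower and 19.3% higher, with a median of -0.19 (it was lower, or decreased by 12.4%), against +0.01 over all genes. At 24 h 7 were lower and 2 higher, where 11.5% of all genes were lower and 16.8% higher, with a median of -0.04 against +0.02. Without the first KD replicate this median turned to +0.0049, and without the second it was -0.08. The KD libraries lay below the control libraries without overlap for 62 members at 0 h, 67 at 8 h and 31 at 24 h, where this held for 32.5%, 37.2% and 27% of all genes.

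These counts rest on few libraries. At 0 h 6 members were called without the second control replicate and 1 without either KD replicate. At 8 h 21 were called without the second control replicate and 22 without the first KD replicate. At 24 h 1 was called without either control replicate, 5 without the second KD replicate, and 7 without the first KD replicate, of which 4 were then higher and 3 lower. At 8 h the share of small RNA was 35.6 and 32.3% in control and 31.7 and 15.6% in KD libraries. Leaving small RNA genes out of the scaling gave 55 lower and 0 higher at 8 h (median -0.19), and median-of-ratios scaling gave 42 lower and 0 higher (median -0.18), while quantile normalization gave 4 lower and 2 higher (median +0.04) and scaling by the summed FPKM of all other genes 0 (median +0.04). Over all genes tested the medians under these 4 scalings were +0.01, +0.02, -0.01 and +0.20 in the same order.

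Relative to the median of all genes tested, the members lay 0.20 lower at 8 h on the log2 scale with the deposited FPKM (difference of medians -0.20). The same difference was -0.20 under median-of-ratios scaling, -0.17 with scaling by the summed FPKM of all other genes, and +0.04 under quantile normalization. Whether KD cells answered TGF-β otherwise than control cells was tested directly. It called 0 members at 8 h and 0 at 24 h in the limma fit, where 4.06% and 4.72% of all genes were called. At an unadjusted p under 0.05 there were 12 of 77 members at 8 h and 9 at 24 h, where this held for 21.2% and 23.7% of all genes. Without the first KD replicate of 24 h, 7 members were called at 24 h.

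**Figure D4:**
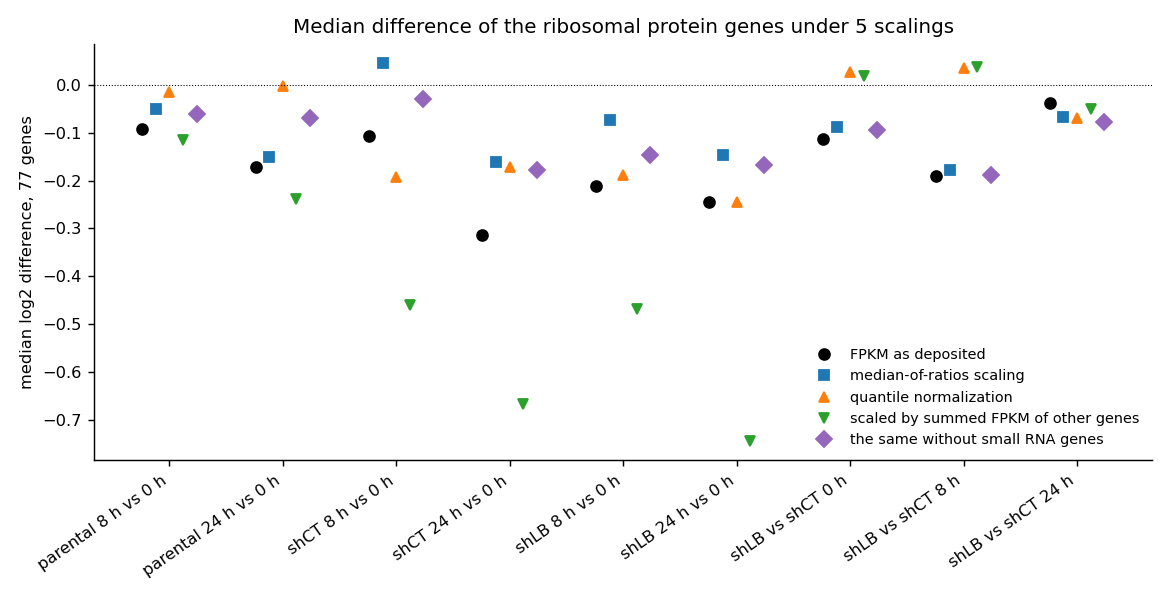
Median log2 difference of the 77 tested ribosomal protein genes in 9 comparisons, each with the deposited FPKM and with 4 other scalings (markers); the dotted line is 0. Control cells at 8 h lie between -0.46 and +0.05, and the difference between KD and control cells at 0 and 8 h changes sign under quantile normalization and under scaling by the summed FPKM of other genes. The medians of all genes, which these scalings also move, are not drawn.

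Rpl26 was lower in KD than in control cells at all 3 times. Untreated control libraries were at 499 and 578 FPKM, against 436 and 438 FPKM in KD libraries. At 8 h the control libraries were at 438 and 449 FPKM and the KD libraries at 298 and 326 FPKM, and at 24 h they were at 353 and 346 FPKM and at 259 and 248 FPKM. The pairs did not overlap at any time. The log2 difference was -0.30 at 0 h (SE 0.07, adjusted p = 0.0192), -0.51 at 8 h (SE 0.07, adjusted p = 0.0009) and -0.46 at 24 h (SE 0.07, adjusted p = 0.00213), with the same direction in 13 of 13 alternatives at each time, and it was called in 6 of 13 at 0 h and in 12 of 13 at 8 and 24 h.

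Rpl12, a protein of the stalk base, was at 2140 and 2274 FPKM in untreated control and at 1793 and 1734 FPKM in untreated KD cells (-0.32, SE 0.07, adjusted p = 0.0118). Rpl3, which lies near the catalytic centre of the large subunit, was at 1354 and 1368 FPKM and at 1141 and 1129 FPKM (-0.26, SE 0.04, adjusted p = 0.00343). At 8 h Rpl10a was at 930 and 933 FPKM in control and at 763 and 726 FPKM in KD cells (-0.32, SE 0.05, adjusted p = 0.0012), and Rps15a at 83.2 and 99.4 and at 70.6 and 73.8 FPKM (-0.33, SE 0.08, adjusted p = 0.0104). In each of these 4 genes the KD libraries lay below the control libraries. Rpl10a (-0.16) and Rpl5 (-0.16), which binds ribosomal RNA and Mdm2, were still lower at 24 h.

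At 24 h Rps27l and Rps25 were higher in KD cells. Rps27l was at 415 and 435 FPKM in control and at 465 and 480 FPKM in KD cells (+0.15, SE 0.05, adjusted p = 0.0474). Rps25, a small subunit protein used by viral internal ribosome entry sites, was at 838 and 865 FPKM and at 915 and 973 FPKM (+0.15, SE 0.05, adjusted p = 0.0413). The libraries did not overlap, and both genes were called in 4 of 13 alternatives. Rps27l did not share the decrease at 8 h, at 518 and 546 FPKM in control and at 535 and 542 FPKM in KD cells (+0.02, not called).

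Genes that work with the ribosomal proteins were counted from lists written with the results of these data known. The counts below stand beside 37.1% of all genes lower and 33.4% higher at 24 h in parental cells, 45.1% and 25.5% in control cells, 43.3% and 28.6% in KD cells, and 16.5% lower and 19.3% higher in KD against control cells at 8 h. Of 73 genes for ribosomal RNA processing and ribosome assembly, 52 fell and 2 rose at 24 h in parental cells (median -0.24), 56 fell and 1 rose in control cells (median -0.31), and 63 fell and 1 rose in KD cells (median -0.44). KD cells at 8 h had 35 of them lower and 2 higher than control cells (median -0.20). Scaling by the summed FPKM of all other genes gave 0 calls and a median of +0.03 for that last comparison, and the medians at 24 h stayed below 0 under the 4 scalings run. Ncl, the nucleolar protein nucleolin, was at a mean of 220 FPKM at 0 h and 143 FPKM at 24 h in control cells (-0.61, adjusted p = 0.0053), and Dkc1, the pseudouridine synthase of box H/ACA particles, at 55.2 and 33.6 FPKM (-0.69). In the same particle Nop10 rose in parental cells (+0.35) and Nhp2 fell in control cells (-0.66).

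Of 14 genes of RNA polymerase I and its factors, 7 fell and 2 rose in parental, 8 fell and 0 rose in control, and 10 fell and 0 rose in KD cells at 24 h, which for parental and control cells is not far above the share of all genes. Ubtf, which opens ribosomal DNA for transcription, was at a mean of 39.6 FPKM at 0 h and 29.9 FPKM at 24 h in parental cells (-0.40) and was lower in KD than in control cells at 8 h (-0.38). Polr1b, a large polymerase I subunit, fell by 0.64 on the log2 scale in control cells (-0.64). The list's medians at 24 h stayed below 0 under the 4 scalings, and in the KD comparison at 8 h (6 of 14 lower, 0 higher) the median turned to +0.04 with scaling by the summed FPKM of other genes.

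Of 38 initiation factors, 20 fell and 4 rose at 24 h in parental and 27 fell and 3 rose in control cells, with Eif4e, which binds the mRNA cap, lower in parental (-0.42) and Eif4g3 higher in both (+0.45 and +0.31). Of the elongation factors tested, 2 of 11 fell and 2 rose in parental and 3 of 10 fell and 1 rose in control cells, below the share of all genes in both directions. Eef2k, the kinase that inhibits elongation factor Eef2, rose in both (+0.65 and +0.63), and Eef1d fell in both (-0.32 and -0.48). The median of the elongation list changed sign between scalings in each of these comparisons. Mitochondrial ribosomal protein genes, whose products serve a separate ribosome, fell at 24 h in 58 of 76 tested in parental (2 rose, median -0.27) and in 71 of 77 in control cells (0 rose, median -0.44). In KD against control cells at 8 h 14 of these 77 were lower and 3 higher (median -0.03), where 50 of 77 cytosolic members were lower. The difference between these 2 counts was not tested.

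Of 7 other cytosolic ribosomal protein genes that the naming rule leaves out, 2 fell in parental and 6 in control cells at 24 h and 0 rose, with Rpl36al lower in both (-0.42 and -0.44). Of 24 genes that control ribosomal protein mRNAs or the mTOR pathway, 11 fell and 3 rose in parental and 11 fell and 4 rose in control cells at 24 h, in control cells about the share of all genes that fell, and their median changed sign between scalings in control cells. Deptor, an inhibitor of mTOR, fell in both (-0.96 and -1.09), and Akt1s1, which encodes the mTOR inhibitor PRAS40, rose in both (+0.21 and +0.32). Of 10 genes of ribosomal stress and p53 response, 6 fell and 1 rose at 24 h in parental and in control cells. In KD against control cells at 8 h 3 of the 10 were higher and 1 lower, with Ccng1 (+0.42), Cdkn1a (+0.37) and Sesn2 (+0.34) higher, and their median was above 0 under all 4 scalings.

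At the promoters, lamin B1 peaks were counted within 500 bp of the transcription start site (TSS) of 79 members placed on mm9, since Rpl41 and Rps4l had no match in the annotation. Peaks were called by the authors in 1 library per time point, so intervals cover counting error over genes only and no error between replicates is known. In untreated cells 17 of 79 members had a lamin B1 peak (21.5%, Wilson 95% interval 13.9 to 31.8%), against 15.3% of all 21978 genes placed. At 8 h 39 had a peak (49.4%, 38.6 to 60.2%), against 30.2% of all genes, and at 24 h 18 did (22.8%, 14.9 to 33.2%), against 23.6%. Among the 743 other genes with a mean of 100 FPKM or more the shares were 32.6%, 49.4% and 36.7%. At 24 h the interval of the members lay just below that of these other genes (33.4 to 40.3%). The rise at 8 h and the fall at 24 h run with the lengths of the lists, which held 4645, 10484 and 7083 peaks. When the lists were cut to equal length, 18.99% of the members had a peak at 8 h and 13.9% at 24 h. The share of all genes under this cut is not given, so these values do not show whether members differ from other genes. The large subunit had 27 of 48 members with a peak at 8 h and the small subunit 12 of 31, with overlapping intervals.

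Of the 79 members, 34 had no lamin B1 promoter peak at any time, 18 had a peak at 8 h alone and 7 at every time. A peak at 8 h alone was found in 8.72% of all genes placed and in 11.98% of the other genes at 100 FPKM or more, and a peak at every time in 9.58% and 21.0%. The 7 members with a peak at every time were Rpl10a, Rpl12, Rpl19, Rpl32, Rpl7a, Rps19 and Rps27l. The peak centres lay a median of 168, 180 and 264 bp downstream of the TSS in the order of time, and most peaks covered the TSS (16 of 17, 36 of 39 and 17 of 18).

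The highest MACS scores at member promoters were those of Rpl8 at 0 h (154, chr15:76734182-76735701), Rpl7a at 8 h (243, chr2:26765690-26766864) and Rps19 at 24 h (175, chr7:25669128-25670267) on mm9, and each of these peaks covered the TSS of its gene. Rpl7a, whose start carries the longest run of C and T shown above, was also second at 0 h (122, chr2:26765561-26766908) and at 24 h (154, chr2:26765919-26766676). Next came Rpl12 at 0 h (110.3), Rpl10a (211) and then Rps19 (184) at 8 h, and Rpl19 at 24 h (145). Over all genes with a promoter peak the scores reached 746, 1332 and 1472 in the order of time, and the members' medians of 76.99, 79.8 and 84.1 lay beside medians of 74.1, 90.7 and 89.8.

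**Figure D5:**
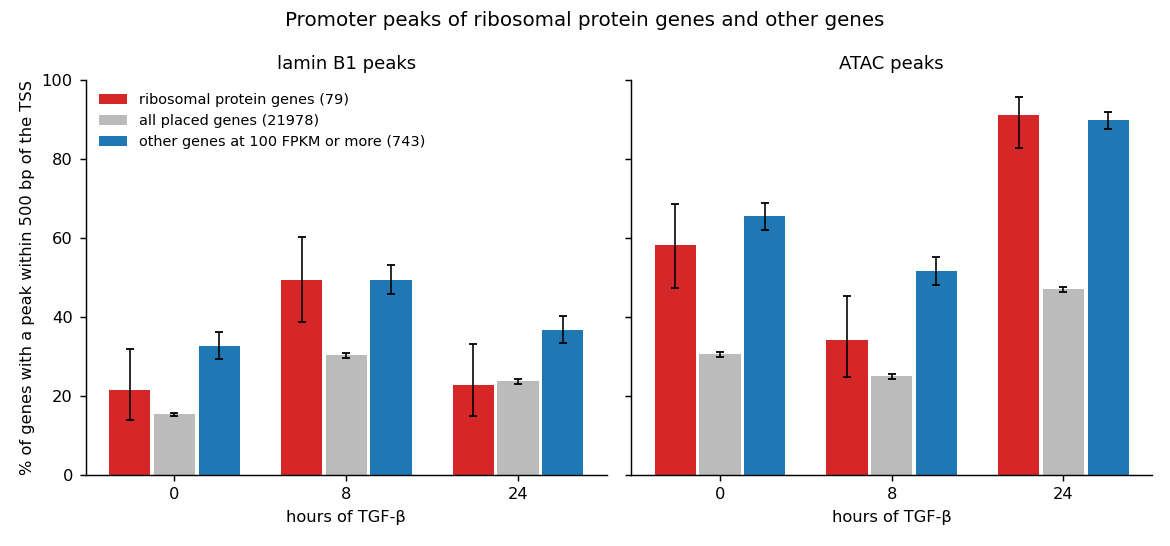
Share of genes with a lamin B1 peak (left) or an ATAC peak (right) within 500 bp of the TSS by hours of TGF-β, for 79 ribosomal protein genes, 21978 placed genes and 743 other genes at 100 FPKM or more; error bars are Wilson 95% intervals over genes from 1 library per time point. Members stand at 49.4% for lamin B1 at 8 h and at 91.1% for ATAC at 24 h, close to other genes at 100 FPKM or more. For lamin B1 at 0 and 24 h they stand at 21.5% and 22.8%, where those genes stand at 32.6% and 36.7%. For ATAC at 8 h they stand at 34.2%, where those genes stand at 51.5%.

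ATAC peaks, which mark accessible chromatin, were found at the promoters of 46 members at 0 h (58.2%, interval 47.2 to 68.5%). At 8 h 27 members had one (34.2%, interval 24.7 to 45.2%), and at 24 h 72 did (91.1%, interval 82.8 to 95.6%). All genes placed stood at 30.5%, 24.9% and 46.9%, and other genes at 100 FPKM or more at 65.5%, 51.5% and 89.9%. The interval of the members at 8 h lay below that of the other highly expressed genes (47.96 to 55.1%). Members with an ATAC peak had median scores of 92.6, 68.1 and 213 in the order of time. The other highly expressed genes with a peak had medians of 114.8, 83.05 and 321. The 24 h list was much longer, with 33811 peaks against 9782 and 10340, and at equal length 34.2% of the members had a peak at 24 h. This value has no share of all genes at equal length beside it. Of the 79 members, 19 had an ATAC peak at every time (24.1%), against 21.6% of all genes and 45.8% of other genes at 100 FPKM or more. A peak at 0 and 24 h was found in 27 members (34.2%), against 8.76% and 19.7%, and at 24 h alone in 18 (22.8%), against 13.3% and 18.8%. A further 8 members had peaks at 8 and 24 h, and 7 at no time (8.86%, against 52.8% and 9.83%). The 7 without a peak were Rpl10l, Rpl39l and Rpl3l, which were not expressed at 1 FPKM, and the expressed genes Rpl36, Rpl8, Rps10 and Rps2. Rpl26 had ATAC peaks at 0 and 24 h (scores 132 and 129) and lamin B1 peaks at 8 and 24 h (scores 54.4 and 61.6), near the lowest score listed.

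Both kinds of peak met at 11 member promoters at 0 h, 15 at 8 h and 17 at 24 h. These are 13.9%, 18.99% and 21.5% of the members, against 10.3%, 14.2% and 19.2% of all genes placed. At 8 h 24 members had a lamin B1 peak without an ATAC peak (30.4%, against 16.1% of all genes), and 12 had an ATAC peak alone (15.2%, against 10.7%). Members with and without a lamin B1 promoter peak had the same median change at 8 h, of -0.09 in parental cells and of -0.19 in KD against control cells, where 24 of 39 with a peak and 25 of 37 without were lower. At 24 h in parental cells 14 of 18 with a peak fell (median -0.21) and 30 of 58 without (median -0.15). In untreated KD against control cells 6 of 17 with a peak and 9 of 59 without were lower, with a median of -0.11 for each. These splits were not tested, and peaks come from cells without shRNA.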

How the data were processed

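The authors aligned the RNA reads and deposited FPKM values in 2 tables that have no header line, and the sample descriptions give the order of the columns. The submitters' processing notes list Bowtie, TopHat, Cufflinks and the build mm9, and the settings are not given in the sources used here. The authors also deposited MACS peak lists on mm9 with a score per peak, 1 list per time point, and the settings and the control of the peak calls are not given in the sources used here.

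Tests ran on log2(FPKM + 1) over the genes that reached 1 FPKM in 2 or more libraries of their table, with limma 3.58.1 in R 4.3.3 (trend, two-sided, all libraries of a table in 1 fit, no replicate block), and a gene was called at an adjusted p (Benjamini-Hochberg) under 0.05. On simulated data with 200 changed genes, the parental 8 h comparison (11309 genes) recovered 72% of genes changed by 0.5 log2 units and 97% of those changed by 1, and 5 of 174 calls were false. For KD against control cells at 8 h (11450 genes) the values were 75%, 92% and 15 of 182. The planted changes were larger than the median differences of the members, and no simulated library was shifted as a whole. These values therefore do not say how well the member calls hold. GENCODE M1 gave gene positions on mm9 (Python 3.11.15), and a promoter reached 500 bp to either side of the TSS. The named members are the 5 highest and 5 lowest, copies ending in l, up to 3 called rises and falls per comparison, up to 3 members against the main direction, and the highest lamin B1 promoter scores. Some members that this rule takes are not reported here. The members were taken by name without a measured value, but this group of genes, the lists and the rules were chosen with earlier results of these data known. Nothing says that the replicates of a group shared or did not share a culture batch, so p-values measure the spread between these libraries. Alternatives were another added constant, no filter, other scalings, a replicate block, fits of 2 groups, leaving out each library, and other peak and promoter rules.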

Additional observations from a re-analysis of the deposited data

Results flagged for a closer look

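Rps29, a small subunit protein, moved in opposite directions at 8 h of TGF-β in parental and in control cells, with no overlap between libraries in either. It was at 2102 and 2012 FPKM at 0 h and at 1963 and 1952 FPKM at 8 h in parental cells (log2 difference -0.071), and at 2015 and 2099 FPKM at 0 h and at 2120 and 2121 FPKM at 8 h in control cells (+0.044). Neither change was called, the difference between them was not tested, and the 2 tables were normalized separately.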

How the results depend on the processing

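The FPKM tables and the peak lists give no read counts, so depth sets no limit that can be stated here. An added constant of 0.1 changed no count by over 1.5 times. With no filter, 3 members were called in parental cells at 8 h, and 8, 33 and 5 in KD against control cells at 0, 8 and 24 h. Under quantile normalization 4 members were called in parental cells at 8 h (median -0.015), 30 at 24 h (16 higher, median -0.0013), 35 in control cells at 24 h (median -0.17, and -0.19 at 8 h), and 0 and 6 in KD against control cells at 0 and 8 h (medians +0.027 and +0.036), and the difference in response called 1 at 8 h (median +0.031, and -0.10 at 24 h). Under median-of-ratios scaling 2 members were called in parental cells at 8 h, 22 in control cells at 8 h (14 higher, median +0.046) and 39 at 24 h (median -0.16), 26 in KD cells at 8 h (median -0.073, and -0.15 at 24 h) and 9 in KD against control cells at 0 h, and the median difference in response at 24 h was +0.042. Scaling by the summed FPKM of non-members gave 5 calls in parental cells at 8 h, medians of -0.46 and -0.67 in control cells and of -0.47 (32 calls) and -0.75 in KD cells at 8 and 24 h, 0 calls in KD against control cells at all 3 times (medians +0.0197 and +0.0367 at 0 and 8 h), and medians of +0.0334 and -0.049 for the difference in response. The same without small RNA genes, added after seeing the data, gave medians of -0.069 in parental cells at 24 h, -0.030 and -0.18 (45 calls) in control cells, -0.15 and -0.17 in KD cells, 18 calls in KD against control cells at 24 h, 1 call for the difference in response at 8 h and a median of +0.038 at 24 h. Fits of only the groups compared called 2 members in parental cells at 8 h, and 1, 32 and 1 in KD against control cells. Leaving out 1 library in turn gave 2 to 25 calls in parental cells at 8 h, 19 to 53 at 24 h, 1 to 15, 21 to 43 and 1 to 7 (4 of the 7 higher) in KD against control cells, 0 to 2 and 0 to 7 for the difference in response, and medians of -0.16 to -0.084 in control cells at 8 h. Where a library left its group with 1, that library was assumed to vary like the other groups. In the shRNA table the fit with a replicate block called 38, 70, 56 and 60 members with TGF-β and 21, 55 and 9 in KD against control cells, and changed no count by over 1.5 times. Same-numbered libraries deviated together (r over 0.1) in 2 of 15 pairs of groups. These were control and KD cells at 24 h (r = 0.37) and KD cells at 0 and 24 h (r = 0.18). The numbers were not taken as a pairing, which such correlations can neither show nor exclude, and the parental columns carry no number. Peaks at or above the median score of their list lay at 25.3 and 11.4% of member promoters for lamin B1 at 8 and 24 h and at 29.1, 10.1 and 67.1% for ATAC, and lists of equal length gave 18.99 and 13.9% for lamin B1 and 34.2% for ATAC at 24 h. Shares of all genes under these 2 rules are not given, so no difference between members and other genes can be read from them. Of the named members, Rps2 in control cells at 8 h turned to -0.0061 (quantile) and -0.054 (non-member scaling), Rplp0 there to -0.21 and Rps2 in KD cells at 8 h to -0.086 (non-member scaling). Of 410 values of named members under alternatives, 330 kept their call, 76 lost it and 4 turned.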
